A study of Mus musculus with 17 samples.

Results

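The genes described here are 9 members of the circadian clock and its output, measured in mouse hypothalamus: the period genes Per1, Per2 and Per3, the cryptochrome Cry2, the activator Clock, the nuclear receptors Nr1d2 and Rora, and the output factors Dbp and Tef. They were taken by symbol, and every probe set (a group of short oligonucleotides that together give 1 signal) to which the platform annotation gives 1 of these symbols was used. This gave 19 of the 22626 probe sets on the array. Of these, 14 were bright enough to be tested, among 13576 tested in all, and all 9 genes kept at least 1, among 7990 genes tested. Each of the 17 arrays held RNA from the hypothalamus of 1 male C57Bl/6 mouse aged 9 weeks. The 6 control mice were wildtype and were injected with vehicle. The 6 STZ mice were wildtype and received 1 intraperitoneal injection of streptozotocin, which destroys pancreatic beta cells and so causes insulin deficiency, at 200 µg/g body weight. The 5 ob/ob mice lack functional leptin in the whole body and become obese and insulin resistant, and their labels name no injection of their own. No label used here gives the hour of collection, the light schedule or a processing batch, so the part that the time of day played in any value below was not tested. The labels do not say how animals were caged or collected, and p-values measure the spread between these mice.

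The mammalian clock is a feedback loop of transcription. CLOCK and its partner BMAL1 (Arntl) bind E-boxes and switch on the Per and Cry genes, whose proteins return to the nucleus and repress CLOCK and BMAL1. A second loop joins the receptors REV-ERB (Nr1d1 and Nr1d2), which repress Arntl, and ROR (Rora, Rorb), which activate it. DBP and TEF, of the PAR bZIP family, carry the rhythm to other genes through D-boxes. In many mouse tissues the mRNAs of the Per genes, Nr1d2, Dbp and Tef follow a daily rhythm, while Clock mRNA changes less. The suprachiasmatic nucleus, the master pacemaker, is a small part of the hypothalamus, so whole-tissue RNA comes mostly from other cells.

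The promoters of Per1, Per3 and Tef are shown because they are those of the 9 genes whose windows held an E-box or a D-box, the elements through which the loop is known to act on such genes. That of Dbp is shown beside Tef, the other output factor. Each is the RefSeq window of 300 bases on GRCm38.p6, from 250 before to 50 after an annotated start, written 5′ to 3′ along the gene. Such windows were given for 8 of the 9 genes, 12 in all. Capitals mark matches, on either strand, to the E-box CACGTG, the E-box variant CACGTT and the D-box TTATGNAA. The same search covered TAGGTCA (the core of a ROR element), TGACGTCA (a cyclic AMP response element) and ACANNNTGT (the core of a glucocorticoid response element), and 0 of the 12 windows held one of these 3. The matches did not overlap. The one match to the E-box variant was in the Cry2 window, which is not printed.
Per1, chr11:69098699-69098998, + strand: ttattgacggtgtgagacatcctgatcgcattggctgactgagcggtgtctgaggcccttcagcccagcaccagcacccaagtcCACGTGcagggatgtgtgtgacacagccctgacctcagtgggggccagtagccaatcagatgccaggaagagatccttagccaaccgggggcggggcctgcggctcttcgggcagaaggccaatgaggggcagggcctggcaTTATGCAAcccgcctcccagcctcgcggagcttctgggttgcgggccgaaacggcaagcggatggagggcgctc
Per3, chr4:151044616-151044915, - strand: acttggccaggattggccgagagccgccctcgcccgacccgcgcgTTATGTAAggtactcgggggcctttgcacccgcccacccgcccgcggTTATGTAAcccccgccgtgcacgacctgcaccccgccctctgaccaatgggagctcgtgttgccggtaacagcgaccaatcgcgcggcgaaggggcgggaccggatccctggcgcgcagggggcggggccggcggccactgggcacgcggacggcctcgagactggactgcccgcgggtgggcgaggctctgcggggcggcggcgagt
Tef, chr15:81802423-81802722, + strand: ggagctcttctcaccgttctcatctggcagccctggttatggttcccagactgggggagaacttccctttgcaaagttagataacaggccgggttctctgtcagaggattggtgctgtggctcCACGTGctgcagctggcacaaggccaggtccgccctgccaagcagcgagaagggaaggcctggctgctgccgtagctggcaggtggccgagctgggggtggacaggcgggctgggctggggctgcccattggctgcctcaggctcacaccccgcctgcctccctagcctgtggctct
Tef, chr15:81811164-81811463, + strand: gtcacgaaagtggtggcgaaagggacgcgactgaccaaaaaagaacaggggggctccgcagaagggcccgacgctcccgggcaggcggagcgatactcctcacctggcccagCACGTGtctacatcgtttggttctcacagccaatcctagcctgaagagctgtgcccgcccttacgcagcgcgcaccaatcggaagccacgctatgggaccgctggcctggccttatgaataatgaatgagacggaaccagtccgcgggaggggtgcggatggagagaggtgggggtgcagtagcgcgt
Dbp, chr7:45704997-45705296, + strand: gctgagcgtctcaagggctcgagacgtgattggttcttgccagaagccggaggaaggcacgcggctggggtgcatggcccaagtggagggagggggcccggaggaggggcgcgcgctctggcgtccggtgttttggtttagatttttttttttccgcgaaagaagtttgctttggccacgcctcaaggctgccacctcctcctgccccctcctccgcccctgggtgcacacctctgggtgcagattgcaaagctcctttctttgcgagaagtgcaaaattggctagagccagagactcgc
The Per1 window printed above held an E-box at position -166 and a D-box at -24 from the start. The other Per1 window, chr11:69099902-69100201, held none of the 6 motifs and is not printed. The Per3 window held D-boxes at -205 and -158, and each Tef window held 1 E-box, at -127 and -138. The Dbp window held none of the 6 motifs. Of all 32851 promoter windows of this length, 7.15% held the E-box, 4.68% its variant, 3.38% the D-box, 2.61% the ROR core, 1.79% the cyclic AMP element and 6.85% the glucocorticoid core. A match is a description of these letters, and a missing match says nothing about binding outside the window.

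Median signals lay between 638 and 707, and any pair of arrays correlated at 0.972 to 0.989, with 0 pairs holding the same values. Of 12 hypothalamic marker genes 7 were tested, among them Pomc, Hcrt, Oxt and Trh, and all 7 had values below control in STZ and in ob/ob. The mean log2 level of these 7 averaged 11.44 in control, 11.22 in STZ and 11.08 in ob/ob. Markers of the neighbouring striatum, cortex and thalamus (12 tested) averaged 10.83, 10.97 and 11.09. They did not all move alike. In STZ 5 of 5 striatal, 0 of 2 cortical and 4 of 5 thalamic markers had values above control. In ob/ob these counts were 5 of 5, 2 of 2 and 4 of 5. In bulk tissue, fewer cells of a type and less RNA per cell cannot be told apart.

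In none of the 3 comparisons did a clock gene pass an adjusted p of 0.05 (limma, adjusted over all 13576 probe sets). On the brightest probe set of each gene, differences lay between -0.088 and 0.29 on the log2 scale. In ob/ob mice Tef, Rora, Per1 and Per2 stood 13.1 to 22.4% above control, each at an unadjusted p under 0.05, and Cry2 stood 14.6% above it in ob/ob and 14.5% in STZ without such a p. Signals are the deposited MAS5 values, group means are geometric, and a difference is a log2 fold change with its standard error (SE). Signals of different genes are not set against each other, since each probe set has its own brightness.

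**Figure D1:**
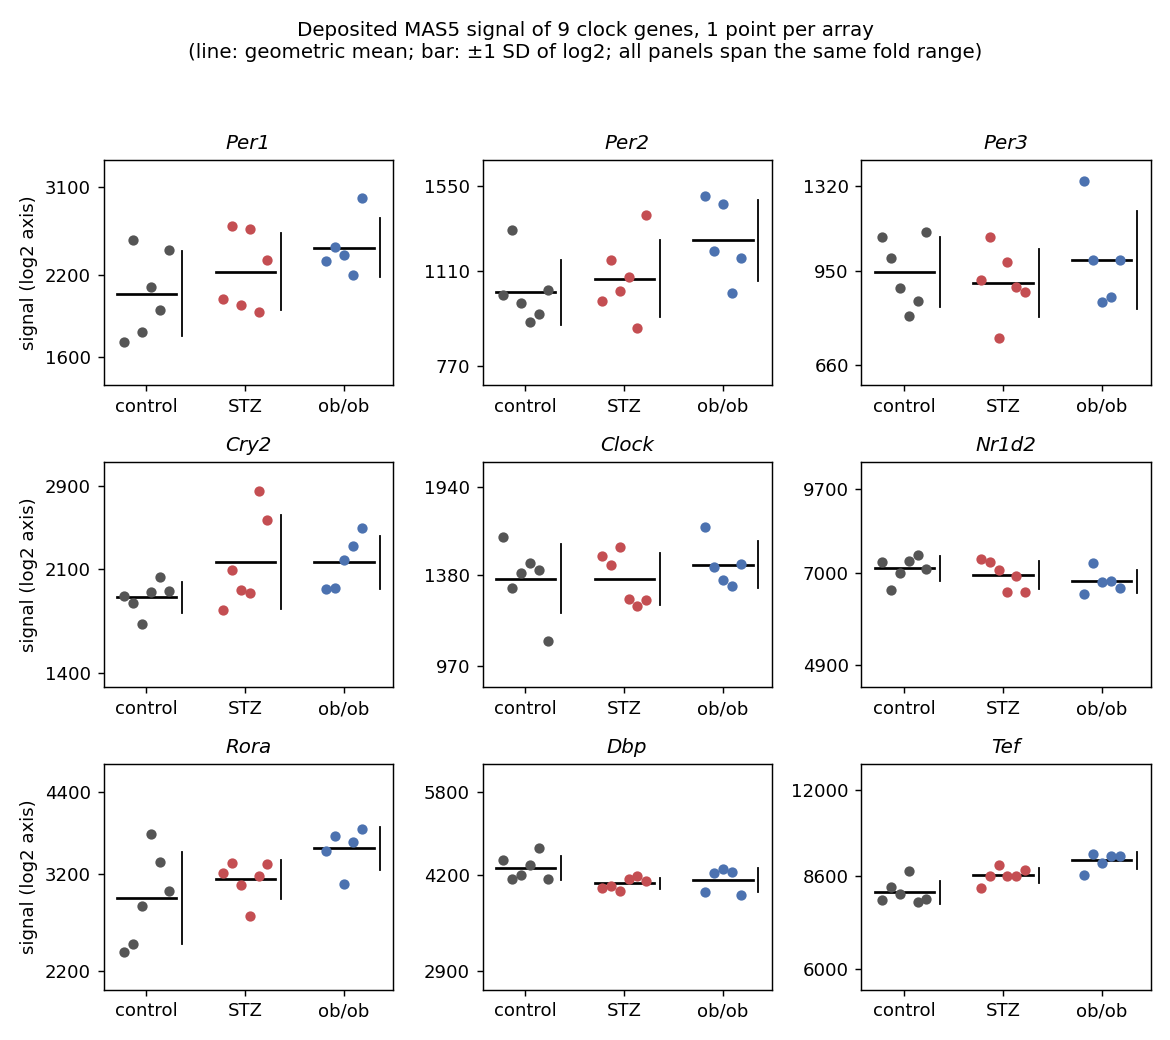
Deposited MAS5 signal (log2 axis) of the 9 genes, on the brightest probe set of each, in control (n = 6), STZ (n = 6) and ob/ob (n = 5) arrays; each point is 1 array, the line is the geometric mean and the bar is 1 SD of log2 signal to either side. All panels span the same fold range, so the narrow spread of Nr1d2, Dbp and Tef and the wider spread of Per1, Per2 and Per3 can be read against each other for these probe sets. The dimmer tested probe sets of Nr1d2 and Tef varied more, with SDs within groups at percentiles 91.9 and 57.6 of those tested. That of Dbp stood at percentile 6.16. These percentiles are not matched for brightness. In every panel the groups overlap.

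Per1, a repressor that is also induced by light, cyclic AMP and glucocorticoids, had control signals from 1691 to 2516 with a median of 2008. The STZ arrays ran from 1904 to 2657 with a median of 2167. The ob/ob arrays read 2317, 2447, 2372, 2198 and 2961. The order of the means was control, STZ and ob/ob, at 2045, 2226 and 2446, and all 5 ob/ob arrays lay above the control mean, while 1 lay above the highest control. The difference of ob/ob from control was 0.26 ± 0.11 (SE, n = 5 and 6, adjusted p = 0.374), a 1.2-fold level with a 95% interval of 1.01 to 1.41. For STZ it was 0.12 ± 0.11 (adjusted p = 0.818), with an interval of 0.930 to 1.27-fold. It was 0.067 without control 1, 0.079 without control 3, 0.071 without STZ 2 and 0.074 without STZ 4.

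Per2, the period gene closest to Per1 in its role, had control signals from 911 to 1304 with a median of 998. The highest of these, control 2, stood well apart from the next, at 1031. The STZ arrays ran from 890 to 1380 with a median of 1058, and the ob/ob arrays read 1490, 1200, 1442, 1021 and 1170. Of the 5 ob/ob arrays, 4 lay above the control mean of 1023 and 2 above the highest control. The ob/ob difference was 0.29 ± 0.12 (adjusted p = 0.322), the largest of the 27 differences in fold, at 1.22-fold with an interval of 1.03 to 1.45. The STZ difference was 0.077 ± 0.11 (adjusted p = 0.897), and it was 0.0062 without STZ 6, the array with the highest STZ signal. It was 0.13 without STZ 5, 0.15 without control 2 and 0.044 without control 4 or after each array was centred on its median log2 signal.

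Per3, whose role in the loop is the weakest of the period genes, did not share this order. Control signals ran from 798 to 1106 with a median of 944, STZ signals from 731 to 1085 with a median of 904, and the ob/ob arrays read 1350, 992, 841, 857 and 990. Means were 946, 907 and 991, and the groups overlapped almost fully. Differences from control were -0.061 ± 0.12 in STZ and 0.067 ± 0.12 in ob/ob (adjusted p = 0.920 and 0.888). The ob/ob value turned to -0.045 without ob/ob 1, and the STZ value to 0.0012 without STZ 3. The intervals allow levels from 0.808 to 1.14-fold in STZ and from 0.876 to 1.25-fold in ob/ob.

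Cry2, a cryptochrome repressor, had control signals in a narrow band from 1695 to 2032 with a median of 1904. The STZ arrays ran from 1786 to 2844 with a median of 2008, and the ob/ob arrays read 1940, 1948, 2172, 2295 and 2457. STZ 5 and STZ 6, at 2844 and 2539, were the highest of all arrays. In each model 3 arrays exceeded the highest control, and 5 of 6 STZ and 5 of 5 ob/ob arrays exceeded the control mean of 1879. The means of STZ and ob/ob were alike at 2151 and 2153, with differences of 0.19 ± 0.097 and 0.20 ± 0.10 from control (adjusted p = 0.618 and 0.469). Without STZ 5 the STZ difference was 0.11. The models differed from each other by 0.0013 ± 0.10, with an interval of 0.864 to 1.16-fold.

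Clock, the activator, showed the smallest STZ difference of the 9 genes. Control signals ran from 1068 to 1598 with a median of 1400, STZ signals from 1222 to 1539 with a median of 1345, and the ob/ob arrays read 1666, 1425.5, 1354.5, 1325 and 1442. Means were 1361, 1359 and 1438, so control and STZ were -0.0022 ± 0.089 apart (adjusted p = 0.996). In ob/ob the 2 tested probe sets gave opposite signs, 0.079 ± 0.093 on the brighter and -0.11 ± 0.077 on the other (adjusted p = 0.792 and 0.601). On the brighter it was 0.0091 without control 6, 0.026 without ob/ob 1, 0.13 without control 1 and 0.0077 with the level of the neighbouring-region markers as a covariate. On the other probe set all 5 ob/ob arrays lay below the control mean of 1281, and 3 below the lowest control.

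Of the receptors in the second loop, Nr1d2 (REV-ERB beta, a repressor) varied less between arrays than Rora (an activator) on the brightest probe sets. Nr1d2 signals ran from 6557 to 7510 in control with a median of 7198, and from 6502 to 7395 in STZ with a median of 7007, and the ob/ob arrays read 6451, 7288, 6766, 6791 and 6614. The highest of all 17 arrays was 1.16 times the lowest. Means stood in the order control, STZ and ob/ob, at 7128, 6945 and 6776, with differences of -0.038 ± 0.044 and -0.073 ± 0.046 that did not pass (adjusted p = 0.867 and 0.573). The interval for ob/ob covers 0.889 to 1.02-fold. The other Nr1d2 probe set varied more, with its highest array at 1.78 times the lowest and an SD within groups at percentile 91.9 of those tested, and gave 0.00071 ± 0.15 and -0.14 ± 0.15.

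Rora signals ran from 2366 to 3747 in control with a median of 2917 and from 2719 to 3350 in STZ with a median of 3199, and the ob/ob arrays read 3504, 3720, 3084, 3634 and 3811. All 5 ob/ob arrays lay above the control mean of 2917, yet only 1 exceeded the highest control, and 4 exceeded the highest STZ array. The ob/ob difference was 0.28 ± 0.098 (adjusted p = 0.254), 1.21-fold with an interval of 1.05 to 1.4, and the STZ difference 0.10 ± 0.093 (adjusted p = 0.817). The latter was 0.044 without control 1, 0.053 without control 2 and 0.18 without control 4. The other tested Rora probe set gave 0.15 ± 0.11 and 0.042 ± 0.11 (adjusted p = 0.647 and 0.941). Rora is also abundant in the thalamus, and the part of thalamic tissue in its values was not tested. With the level of the neighbouring-region markers as a covariate the ob/ob difference was 0.16 (limma, adjusted p = 0.787) and the STZ difference 0.040. This level itself differed between the groups, at means of 10.83 in control, 10.97 in STZ and 11.09 in ob/ob. The fit therefore cannot cleanly separate it from the group. On group-centred signals r of Rora with it was 0.37 (permutation p = 0.290). With this covariate Tef stood at 0.17 (adjusted p = 0.391), and Nr1d2 and Dbp at -0.11 each.

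The output factors Dbp and Tef had the least spread within groups on the brightest probe set of each gene, and had values on opposite sides of control. Their SD of log2 signal within groups was 0.059 for Dbp and 0.053 for Tef, lower than in all but 2.87 and 1.73% of the probe sets tested, while the other tested Tef probe set had 0.15, at percentile 57.6. The SDs of Per1, Per2 and Per3 were 0.21, 0.21 and 0.22, at percentiles 79.3, 78.6 and 81.3.

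Dbp signals ran from 4141 to 4669 in control with a median of 4285 and from 3956 to 4194 in STZ with a median of 4066, and the ob/ob arrays read 3945, 4245, 4308, 4262 and 3888. All 6 STZ arrays lay below the control mean of 4326 and 4 of them below the lowest control. All 5 ob/ob arrays lay below that mean and 2 below the lowest control. The differences were -0.088 ± 0.041 in STZ (adjusted p = 0.591) and -0.068 ± 0.043 in ob/ob (adjusted p = 0.566), or 0.941-fold and 0.954-fold. The intervals run from 0.887 to 0.998-fold and from 0.896 to 1.02-fold. The other Dbp probe set gave -0.091 ± 0.047 and -0.078 ± 0.049, close to the brighter one. Over all 17 arrays the highest Dbp signal was 1.2 times the lowest.

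Tef signals ran from 7768 to 8765 in control with a median of 7944 and from 8192 to 8965 in STZ with a median of 8602, and the ob/ob arrays read 8645, 9383, 9050, 9309.5 and 9296. All 6 STZ and all 5 ob/ob arrays exceeded the control mean of 8074, and 4 of the 5 ob/ob arrays exceeded the highest control, which was control 4. The ob/ob difference was 0.18 ± 0.039 (adjusted p = 0.0687), 1.13-fold with an interval of 1.07 to 1.2, and it ranked 36 of 13576 by p. With quantile normalization it passed (0.20, adjusted p = 0.0286), as it did without control 4 (0.20, adjusted p = 0.02). It was weaker after centring each array on its median (0.15, adjusted p = 0.335) and with the mean over probe sets (0.14, adjusted p = 0.159), and the adjusted p was 0.145 in a fit of the 2 groups and 0.110 without the trend. The STZ difference was 0.094 ± 0.037 (adjusted p = 0.5), 1.07-fold, and 0.062 after each array was centred on its median log2 signal. The other tested Tef probe set gave 0.11 ± 0.088 in ob/ob and 0.13 ± 0.084 in STZ (adjusted p = 0.676 and 0.722), with the same sign and a larger error.

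**Figure D2:**
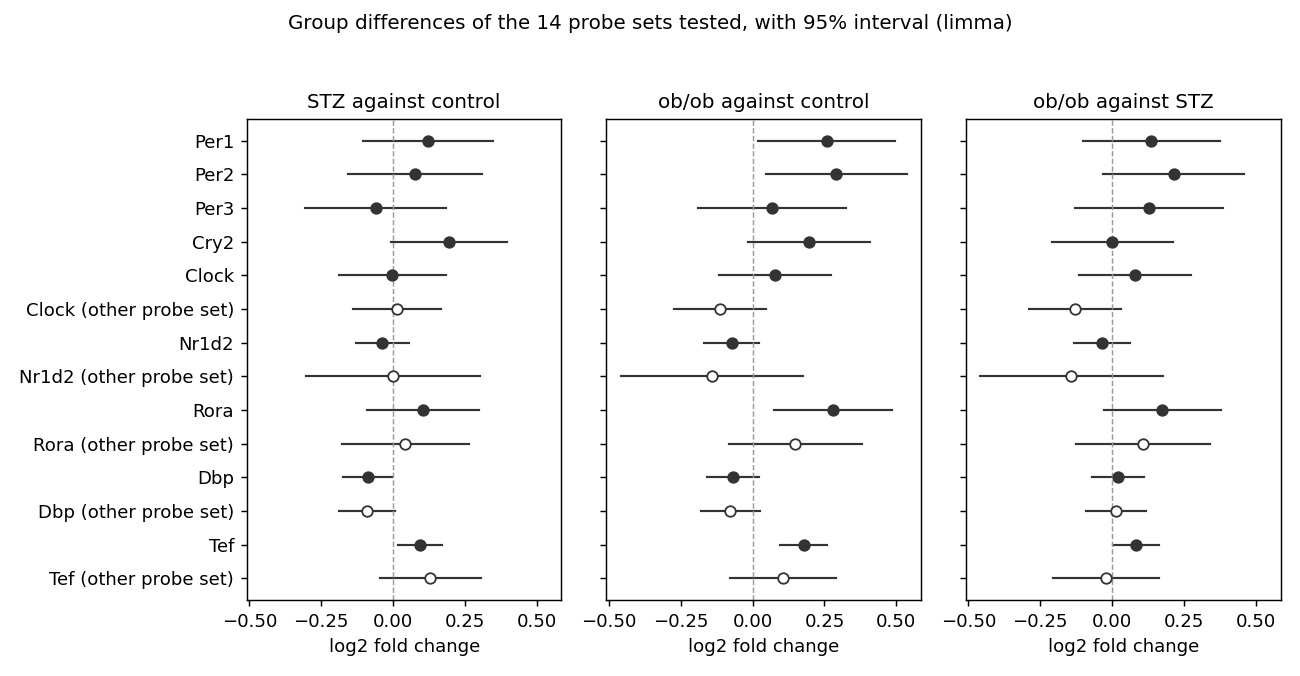
Log2 fold changes (x axis) of the 14 tested probe sets of the 9 genes in the 3 comparisons, with their 95% intervals from limma; filled points are the brightest probe set of a gene and open points its others. On the brightest probe sets the interval excludes 0 for Tef in all 3 comparisons, for Dbp in STZ against control (lower) and for Rora, Per1 and Per2 in ob/ob against control, before any adjustment for the number of probe sets tested.

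Set against all probe sets tested, the counts were as follows. Each of the 9 genes is counted on its brightest probe set, while the shares are over all tested probe sets, dimmer ones of the same gene included. In STZ against control 0 of the 9 genes had an adjusted p under 0.05, as had 0.0516% of all probe sets (limma). At an unadjusted p under 0.05, 1 gene was higher (Tef) and 1 lower (Dbp), against 3.87 and 4.38% of probe sets. In ob/ob against control 0 passed after adjustment, against 0.125%. There, 4 genes were higher at an unadjusted p under 0.05 (Per1, Per2, Rora and Tef) and 0 lower, against 5.75 and 6.12%. With the neighbouring-region level as a covariate, 2 genes rather than 4 had such a p. The share of all probe sets was not counted for that fit, and this level itself differed between the groups. With it Per1, Per2, Rora and Tef stood at 0.17, 0.36, 0.16 and 0.17, against 0.26, 0.29, 0.28 and 0.18 without it. Values above 0 were found for 5 of 9 genes in STZ and 7 of 9 in ob/ob, against 50.3 and 49.8% of probe sets. The median log2 difference of the 9 genes was 0.077 in STZ and 0.18 in ob/ob, and that of all probe sets was 0.00060 and -0.00051. The groups overlapped for all 9 genes in both comparisons, and 0.567 and 1.91% of probe sets had groups that did not overlap. The 2 comparisons share their controls, so their values are not independent.

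The direct comparison of ob/ob with STZ asked whether the models differed from each other. After adjustment 0 of the 9 genes passed, against 0.0368% of probe sets (limma). Tef was the only one of the 9 with an unadjusted p under 0.05, higher in ob/ob by 0.083 ± 0.039 (adjusted p = 1), with means of 9133 and 8620. The other tested Tef probe set stood at -0.021 ± 0.088, and the mean over probe sets gave 0.031. The shares of probe sets with such a p were 1.93% higher and 2% lower. Of the 9 genes 8 had a value above 0, all but Nr1d2, against 49.9% of probe sets, and 0 had groups that did not overlap, against 0.42%. Among the 8, Cry2 stood at 0.0013 ± 0.10. Clock stood at 0.081 ± 0.093 on its brightest probe set and at -0.13 ± 0.077 on its other tested one. Per2 and Rora differed by 0.21 ± 0.12 and 0.17 ± 0.098 without passing, and Dbp by 0.020 ± 0.043, with an interval of 0.952 to 1.08-fold. Without STZ 1, STZ 2, STZ 4 or STZ 5, or without ob/ob 2 or ob/ob 5, the count at an unadjusted p under 0.05 was 0, and without STZ 6 it was 2. The shares of all probe sets were not counted for these fits.

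The other 5 probe sets of these genes were below the brightness filter (a geometric mean signal of 435) and are described from a fit without it. They belonged to Per2 (1), Per3 (2), Rora (1) and Tef (1), and their smallest adjusted p was 0.808 in STZ and 0.628 in ob/ob (limma, without the filter). The dim Rora probe set stood at 0.40 ± 0.22 in ob/ob, on the same side as the brighter ones. The dim Tef probe set stood at 0.14 ± 0.19 in STZ and 0.015 ± 0.20 in ob/ob. The brighter of the dim Per3 probe sets stood at 0.13 ± 0.24 in STZ and -0.10 ± 0.26 in ob/ob. Both signs were opposite to those of the Per3 probe set tested. The dim Per2 probe set stood at -0.25 ± 0.16 in STZ and 0.037 ± 0.16 in ob/ob, unlike the brighter one in STZ. The dimmest, of Per3, varied 6.79-fold across arrays and stood at 0.24 ± 0.46 in STZ and 0.12 ± 0.48 in ob/ob.

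Other parts of the clock were counted by list. Of 8 further core clock genes 5 were tested and 0 passed in either comparison with control (limma, 0 at an unadjusted p under 0.05), with 4 of 5 above control in STZ and in ob/ob and medians of 0.16 and 0.18. In STZ the smallest p-values were those of Rorb, a ROR receptor, at 0.18 ± 0.095 and Nr1d1, REV-ERB alpha, at 0.16 ± 0.13 (adjusted p = 0.634 and 0.804). In ob/ob they were those of Npas2, a relative of Clock, at 0.40 ± 0.21, and Cry1, the other cryptochrome, at 0.27 ± 0.17 (adjusted p = 0.472 and 0.573). Arntl, the partner of Clock, stood at -0.036 ± 0.074 and -0.022 ± 0.077.

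Of a list of 13 names of further outputs and modulators, in which Noct stands under 2 names, 9 genes were tested and 0 passed (limma, 1 at an unadjusted p under 0.05 in each comparison). Usp2, a deubiquitinase with a strong daily rhythm, stood at 0.19 ± 0.081 in STZ (adjusted p = 0.531), with Klf9, a Krüppel-like factor under clock and glucocorticoid control, next at 0.084 ± 0.053. In ob/ob Klf9 stood at 0.23 ± 0.055 (adjusted p = 0.0886) and Hlf, the third PAR bZIP factor, at 0.13 ± 0.067 (adjusted p = 0.473). Of 11 genes for kinases and turnover of clock proteins 8 were tested and 0 passed (limma, 1 at an unadjusted p under 0.05 in each). Btrc, an F-box protein that marks PER for degradation, stood at -0.17 ± 0.072 in STZ and -0.15 ± 0.075 in ob/ob (adjusted p = 0.544 and 0.434). Csnk1d, casein kinase 1 delta, which phosphorylates PER, stood at 0.30 ± 0.14 in ob/ob (adjusted p = 0.379), and Fbxw11, a relative of Btrc, at 0.061 ± 0.049 in STZ. Of 13 genes of the suprachiasmatic nucleus 6 were tested and 0 passed (limma, 0 at an unadjusted p under 0.05). Avp, a pacemaker peptide also made by magnocellular neurons, stood at 0.18 ± 0.11 and 0.19 ± 0.12, Zfhx3, a transcription factor, at -0.097 ± 0.068 in STZ, and Grp, a peptide, at 0.26 ± 0.26 in ob/ob. Vip, the peptide that couples pacemaker neurons, stood at -0.029 ± 0.11 and -0.078 ± 0.11.

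How the 9 genes varied together from mouse to mouse was asked of log2 signals centred on the mean of each group. Rhythmic genes of one phase are known to rise and fall together over the day, and collection hours are not labelled here. Over all 36 pairs Pearson's r had a median of -0.028 and ran from -0.57 to 0.44, with 16 pairs above 0. No pair passed after adjustment over the 36 pairs (permutation within groups, smallest adjusted p = 0.506 for r and 0.441 for Spearman's rho; 2 and 4 pairs had an unadjusted p under 0.05). All values come from the same 17 arrays and share each array's scaling.

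**Figure D3:**
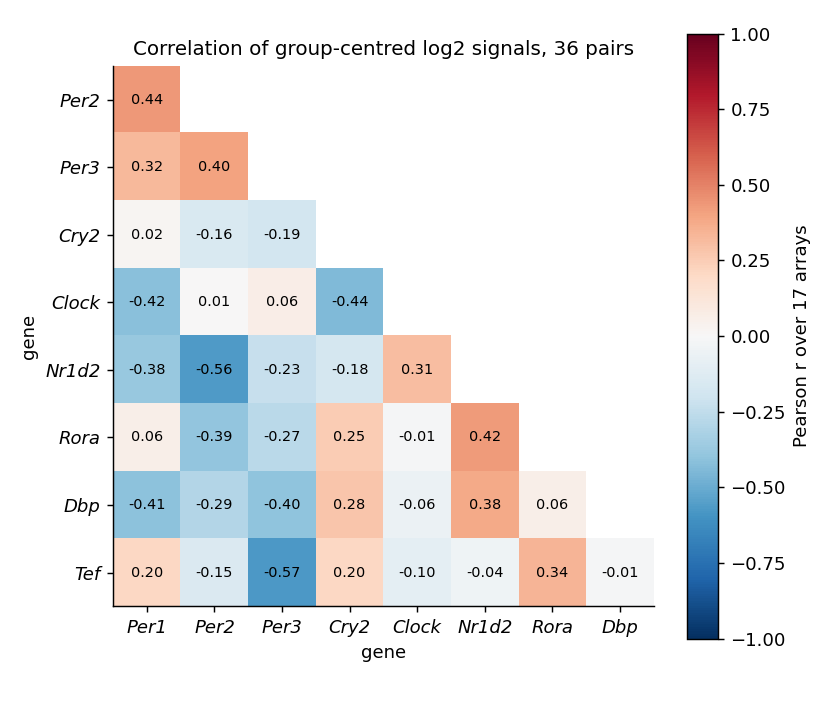
Pearson's r of log2 signals, centred on the mean of each group, for the 36 pairs of the 9 genes over 17 arrays; red is positive and blue negative. The 3 pairs among Per1, Per2 and Per3 are all positive (0.32 to 0.44), and the 6 pairs of these genes with Nr1d2 and Dbp are all negative (-0.23 to -0.56), none of them past the adjusted threshold.

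Among the period genes all 3 pairs were positive, and 0 passed. Per1 and Per2 had r = 0.44 (permutation p = 0.0998, adjusted p = 0.506) and rho = 0.46 (permutation p = 0.0731, adjusted p = 0.465), and r was 0.40 without control 2 and ob/ob 5, the arrays farthest from the median of Per1. Within control arrays r was 0.59 (exact permutation p = 0.211) and within STZ arrays 0.63 (exact permutation p = 0.172). Per3 had an r of 0.32 with Per1 and 0.40 with Per2. The pairs of Dbp with Per1, Per2 and Per3 stood at -0.41, -0.29 and -0.40, and that of Dbp with Nr1d2 at 0.38. Signs differed between control and STZ for 3 of these 4 pairs. Dbp with Nr1d2 stood at 0.81 in control and -0.64 in STZ, Dbp with Per1 at -0.57 and 0.12, Dbp with Per2 at -0.57 and -0.078, and Dbp with Per3 at -0.42 and 0.30, and these differences between groups were not tested. Dbp and Tef, which belong to one family, had r = -0.012 (permutation p = 0.969, adjusted p = 0.985) and rho = 0.027 (permutation p = 0.927, adjusted p = 1), and r was 0.24 without control 5 and ob/ob 5.

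The 2 pairs with an unadjusted p under 0.05 for r were negative. Per3 and Tef had r = -0.57 (permutation p = 0.0235, adjusted p = 0.506) and rho = -0.52 (permutation p = 0.0475, adjusted p = 0.441), and r was -0.38 without STZ 3 and ob/ob 1. Per2 and Nr1d2 had r = -0.56 (permutation p = 0.0306, adjusted p = 0.506) and rho = -0.54 (permutation p = 0.0422, adjusted p = 0.441), and r was -0.27 without STZ 6 and control 2. By rho the smallest p was that of a positive relation, Cry2 with Rora, at rho = 0.46 (permutation p = 0.0397, adjusted p = 0.441) and r = 0.25 (permutation p = 0.206, adjusted p = 0.512), and r was 0.36 without STZ 1 and STZ 5. Cry2 and Clock had rho = -0.52 (permutation p = 0.0490, adjusted p = 0.441) and r = -0.44 (permutation p = 0.0707, adjusted p = 0.506), and r was -0.31 without the same arrays. Within control and within STZ arrays 16 and 17 of the 36 pairs were above 0 and 0 pairs passed after adjustment (exact permutation over 720 orders, smallest adjusted p = 0.665 and 0.200). The latter was that of Clock with Dbp, at r = -0.98 in STZ (exact permutation p = 0.00556). This pair stood at 0.60 in control and at -0.059 over all 17 arrays, and the difference between groups was not tested.

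The 3 genes nearest to Per1, Dbp and Tef were taken from 7981 candidates. By r of group-centred log2 signal over 17 arrays, given with no test, the nearest to Per1 were Kcna6, a potassium channel subunit, at 0.90, Cnot6l, a deadenylase subunit, at 0.80 and Snx11, a sorting nexin, at 0.78. The nearest to Dbp were Slc30a9, a zinc transporter, at 0.88, Sema3a, an axon guidance ligand, at 0.79 and Mrps35, a mitochondrial ribosomal protein, at 0.78. The nearest to Tef were Slc6a17, a vesicular amino acid transporter, at 0.82, Dedd, a death effector domain protein, at 0.79 and Adamts10, a metalloprotease, at 0.77. Among the 5 further core clock genes and 9 further outputs and modulators tested, the nearest was Klf9 for Per1, at rank 352 (0.49). For Dbp it was Noct, a rhythmic gene also called nocturnin, at rank 307 (0.49), and for Tef it was Usp2, at rank 953 (0.34). The first ranks are the highest of 7981 genes, so the best of so few clock genes cannot be set against them.

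Each gene was also set against the mean level of 4 other lists, 36 relations in all, since Per1 is a known target of glucocorticoids and of the cyclic AMP pathway that drives immediate early genes, and several clock genes follow temperature. No relation passed after adjustment over the 36 (permutation, smallest adjusted p = 0.111 for r and 0.112 for rho; 5 had an unadjusted p under 0.05 for r). The smallest p was that of Per1 with 15 glucocorticoid-responsive genes, at r = 0.77 (permutation p = 0.00308, adjusted p = 0.111) and rho = 0.75 (permutation p = 0.00403, adjusted p = 0.112), and r was 0.74 without control 2 and ob/ob 5. It was positive within control arrays (0.87, exact permutation p = 0.0389) and within STZ arrays (0.71, exact permutation p = 0.139). Per2 with the same list had r = 0.59 (permutation p = 0.0113, adjusted p = 0.136) and rho = 0.60 (permutation p = 0.0160, adjusted p = 0.115), and r was 0.31 without STZ 6 and control 2. Clock and Nr1d2 stood at -0.57 each (permutation p = 0.0356 and 0.0316, adjusted p = 0.256 for both), Dbp at -0.44 and Tef at 0.18. For Dbp r was -0.86 within control arrays and 0.36 within STZ arrays, a difference that was not tested.

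**Figure D4:**
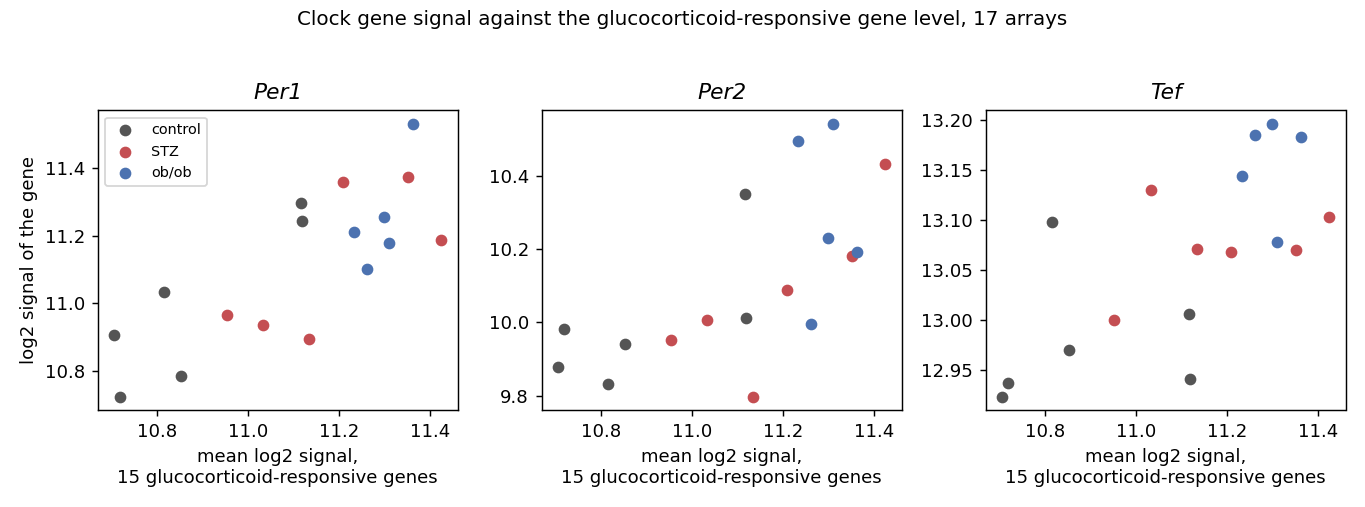
Log2 signal of Per1, Per2 and Tef (y axes) against the mean log2 signal of 15 glucocorticoid-responsive genes (x axes) in 17 arrays, coloured by group. Control arrays lie from 10.71 to 11.12 on the x axis, STZ arrays from 10.95 to 11.43 and ob/ob arrays from 11.23 to 11.36. On group-centred signals over all 17 arrays, r was 0.77 for Per1, 0.59 for Per2 and 0.18 for Tef. Of these, 0 passed after adjustment, and r within the ob/ob arrays alone was not computed.

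The level of that list is given by group, beside the higher Per1 and Per2 values. Its mean log2 level ran from 10.71 to 11.12 in control, from 10.95 to 11.43 in STZ and from 11.23 to 11.36 in ob/ob, and all 15 genes had values above control in both models. After adjustment 0 and 1 of the 15 passed (limma; 6 and 9 at an unadjusted p under 0.05). The smallest p-values were those of Tsc22d3, the glucocorticoid-induced leucine zipper, at 0.24 ± 0.051 in STZ (adjusted p = 0.103) and Plin4, a lipid droplet protein, which rose by 1.04 ± 0.20 in ob/ob (adjusted p = 0.0449). This list was chosen with its earlier results known, and its part in the Per1 and Per2 values was not tested.

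Cry2 was set against 6 immediate early genes, with r = -0.57 (permutation p = 0.00666, adjusted p = 0.120) and rho = -0.55 (permutation p = 0.0107, adjusted p = 0.112), and r was -0.66 without STZ 1 and STZ 5. Per1, Per2 and Per3 had values of 0.37, 0.48 and 0.49 with the same 6 genes. These genes averaged 10.57 in control, 10.91 in STZ and 10.80 in ob/ob, and Dusp1, a phosphatase, had the smallest p in both models, at 0.45 ± 0.15 and 0.51 ± 0.15 (adjusted p = 0.380 and 0.174). The level of 10 temperature-responsive genes averaged 12.12, 12.02 and 11.97. It joins Cirbp, a cold-inducible RNA-binding protein, with heat shock genes, so opposite changes can offset each other in this mean. Of the 10 genes, 3 had values above control in STZ and 1 in ob/ob. At an unadjusted p under 0.05 (limma), 1 was higher and 5 lower in STZ, and 1 higher and 6 lower in ob/ob. The shares of all probe sets were 3.87 and 4.38% in STZ, and 5.75 and 6.12% in ob/ob. After adjustment 0 passed. Cirbp stood at 0.35 ± 0.091 in STZ (adjusted p = 0.229) and Hsph1, a heat shock chaperone, at -0.29 ± 0.061 in ob/ob (adjusted p = 0.0558). The r of this level with the 9 clock genes lay between -0.415 and 0.20. With the neighbouring-region level, r lay between -0.19 for Per2 and 0.37 for Dbp and Rora.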

How the data were processed

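Values deposited by the authors are array intensity on a linear scale. Per the submitters' processing notes they come from MAS5, with 1 signal for each probe set on each array. Its version, scaling target and genome build are not given in the sources used here. The 2% trimmed mean was 1500.4 on every array, so arrays had been scaled to one mean. Signals were taken as log2, 64 control probe sets were left out, and a filter at the 40th percentile of average log2 signal (435) chose what was tested. For each gene the brightest probe set stood for it (an _x_at kind only where there was no other); of 20380 probe sets with 1 symbol 20351 matched the RefSeq gene table (GRCm38.p6) by Entrez identifier and 0 symbols differed. Groups and replicate numbers came from the titles. All 3 groups entered one linear model in limma 3.58.1 (eBayes with trend, R 4.3.3), with Benjamini-Hochberg adjustment over 13576 probe sets and a threshold of 0.05, after a check on simulated data. Correlations used 100000 permutations within groups (numpy 2.4.6), adjusted over 36 relations. Array signals have no read depth, and the number of arrays limits the precision.

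The members, the gene lists and the tests were chosen with earlier results of these data known. All 9 members were to be named with every probe set, besides the 2 smallest p-values of each clock list, the smallest of each other list, and the 3 genes nearest to Per1, Dbp and Tef; Arntl, Vip and the nearest further clock genes were added to these with their values already known. Alternatives tried were the filter, the scaling, the offset, the mean over probe sets, a fit of the 2 groups, the replicate number as a block, the neighbouring-region level as a covariate, the trend and leaving out each array.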

Additional observations from a re-analysis of the deposited data

Results flagged for a closer look

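Per2 in control 2 stood apart from the other 5 control arrays, at a signal of 1304 against 1031 for the next, a gap of 0.653 of the range of the group on the log2 scale. Among the 27 sets of values checked (9 genes in 3 groups) it was the only one past the limit for a single distant value, and chance flags about 1 in 20 such sets. The same array had the highest Per1 signal of the controls, 2516, and a glucocorticoid-responsive level of 11.12, the second highest of the controls. Without it the ob/ob difference of Per2 was 0.36.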

How the results depend on the processing

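No alternative made a clock gene pass the adjusted threshold in STZ against control or in ob/ob against STZ (limma). In ob/ob against control the count was 1 with quantile normalization, and 0 to 1 when each array was left out in turn (1 without control 4); the gene was Tef both times. The count at an unadjusted p under 0.05 in STZ against control was 1 after centring on the median and without the trend, and 1 to 3 when each array was left out. In ob/ob against control it was 2 with the neighbouring-region level as a covariate, and 3 to 5 when each array was left out. In ob/ob against STZ it was 0 after centring on the median, with the mean over probe sets, with the covariate and without the trend, 2 in a fit of the 2 groups, and 0 to 2 when each array was left out. Of the single values under the alternatives 551 kept their sign and side of the threshold, 20 changed sign and 2 (Tef, above) passed. With quantile normalization Cry2 in ob/ob against STZ was -0.0095, and it ran from -0.052 to 0.082 when each array was left out. With the mean over probe sets Clock was 0.0062 in STZ against control, -0.018 in ob/ob against control and -0.024 in ob/ob against STZ, and the first ran from -0.072 to 0.044 when each array was left out. Per3 ran from -0.11 to 0.0012 in STZ and from -0.045 to 0.13 in ob/ob against control. The median pairwise correlation was 0.048 without centring on the group means and ran from -0.073 to -0.0076 when each array was left out, and without centring 6 of the 36 relations to list levels passed, where differences between the groups enter. The cause of these changes was not tested. With the replicate number as a block, the counts at an unadjusted p under 0.05 were 2, 5 and 1 in the 3 comparisons and 0 genes passed (Tef in ob/ob against control 0.18, adjusted p = 0.0979). Deviations of arrays with the same number correlated from -0.17 to 0.11 (median 0.023), and 2 of 17 arrays correlated best with their own number. The block changed no call at the adjusted threshold. For none of these alternatives was the share of all probe sets at an unadjusted p under 0.05 counted. The counts of clock genes under them therefore have no share to be read against. The labels do not say whether arrays with the same number share anything else, and such correlations cannot show that they do not. Signal over background was not given, which limits what can be said of dim probe sets.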
